A study of Mus musculus with 21 samples.

Results

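The genes described here are 8 genes of Notch signalling in conventional dendritic cells (cDCs): the receptors Notch1, Notch2 and Notch4, the DNA-binding factor Rbpj, the target genes Dtx1, Hes1 and Nrarp, and Esam, a surface marker of Notch2-dependent splenic cDC2. They are 8 of the 37734 genes measured, matched by gene symbol. They were chosen with their measured values in all 6 groups known, so that their own levels and differences are given as a description with no test. All 8 reached a normalized read count of at least 10 in at least 3 samples, the minimum for a gene to enter the fit. Tests are given for the other genes of the pathway.

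The cells came from C57BL/6 mice, with no treatment named, aged 6 to 8 weeks, were enriched on CD11c from pooled organs and were FACS-sorted for bulk RNAseq. Immature cells were gated as CCR7- Esam- and mature cells as CCR7+ Esam+, cDC1 as CD24+ CD11b- and cDC2 as CD24- CD11b+. The groups were immature splenic cDC1 (5 libraries, 4 samples), immature splenic cDC2 (3), immature thymic cDC1 (4), immature thymic cDC2 (3), mature thymic cDC1 (3) and mature thymic cDC2 (3). No mature splenic group was analysed, and no gene deletion, Notch inhibitor or ligand is named in the labels. Organ, subset and maturation state are those that the sort defined. All mature samples were on lane 8, whereas each immature group was spread over lanes 5 and 8, so that maturation is partly confounded with lane. Since the Esam protein was part of the gate, the Esam transcript in mature against immature cells is a check of the sort, and the splenic cDC2 described here are those without surface Esam.

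Notch receptors are cut on binding a Delta-like or Jagged ligand of a neighbouring cell, and their freed intracellular domain joins RBPJ and a Mastermind protein on DNA. Hes1, Nrarp and Dtx1 are common targets of that complex. In the mouse spleen, Notch2 signalling is known to be needed for the Esam-high cDC2, and stromal Delta-like 1 is its ligand there. In the thymus, Notch1 on early progenitors receives Delta-like 4 from the epithelium and sets the T cell fate.

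Between 14266867 and 40119669 reads per library could be recovered from the values. Splenic cDC1 libraries 4 and 5 differed by less than any other pair of that group (chi-square per degree of freedom 2.53, against 26.9 to 190) and carry the same number, index and lane in their names, so they were averaged and counted as 1 sample. Immature thymic cDC1 libraries 3 and 4 also share number, index and lane, but their difference of 100 was above the range of the other pairs (24.6 to 93.6), so each counted as a sample. Splenic cDC1 replicate 1 carries the same number as replicate 4, with another index and lane, and also counted as its own sample. Samples that share a number may thus not be independent. The cDC1 markers Xcr1, Clec9a, Cadm1, Batf3, Irf8 and Itgae summed to between 40512 and 107036 in the cDC1 samples and to between 2856 and 22411 in the cDC2 samples. The 6 cDC2 markers summed to between 14073 and 66352 in the cDC2 samples and to between 548 and 3623 in the cDC1 samples, and the 5 markers of mature cDCs to at least 376442 in each mature sample and at most 35608 in each immature one. Among the immature groups this last sum was highest in thymic cDC2, at 24449 to 35608. It was 2526 to 4102 in thymic cDC1, 1124 to 2530 in splenic cDC1 and 3734 to 9324 in splenic cDC2. The part of this difference in the maturation and organ comparisons was not tested. In mature thymic cDC2 the cDC1 markers summed to 14329 to 22411 and the cDC2 markers to 14073 to 18217, so the 2 sums overlapped. In mature thymic cDC1 these sums were 40512 to 44163 and 2114 to 3623. The part of that overlap in the comparisons of mature subsets was not tested. In mature thymic cDC1, 5 of the 6 cDC1 markers were lower than in immature ones (Xcr1 253 to 557 against 16194 to 20744) and Batf3 was higher (4509 to 5683 against 1108 to 1768), and in mature thymic cDC2 Cd209a was between 23.5 and 215 against 17259 to 19971. The 6 macrophage markers summed to 570 to 1021 in immature cDC1 and to 4009 to 10192 in the other groups, and their part in the results was not tested. Splenic cDC1 replicate 3 stood apart from the other samples of its group, and values that rest on it are given with and without it.

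The 4 stretches that follow lie upstream of start sites in RefSeq (GRCm38.p6) and are printed 5′ to 3′ along the gene, up to the first base that GENCODE M21 counts as exon of any gene. They are shown for the 2 receptors that made up most of the receptor level, for the target gene that varied least, and for Rbpj, the member whose upstream windows held the core letters of the RBPJ motif. Capitals mark TGGGAA or its reverse complement TTCCCA.
Notch2, chr3:98013288-98013526, plus strand: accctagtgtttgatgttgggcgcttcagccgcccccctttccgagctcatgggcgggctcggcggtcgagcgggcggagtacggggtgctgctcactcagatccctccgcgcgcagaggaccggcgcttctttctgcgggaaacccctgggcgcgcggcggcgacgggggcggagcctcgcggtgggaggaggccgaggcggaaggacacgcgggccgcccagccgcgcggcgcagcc
Notch4, chr17:34564045-34564267, plus strand: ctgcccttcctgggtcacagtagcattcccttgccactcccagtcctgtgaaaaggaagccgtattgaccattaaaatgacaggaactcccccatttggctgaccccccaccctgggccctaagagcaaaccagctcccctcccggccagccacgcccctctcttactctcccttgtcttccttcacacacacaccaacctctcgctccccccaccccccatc
Nrarp, chr2:25180508-25180757, plus strand: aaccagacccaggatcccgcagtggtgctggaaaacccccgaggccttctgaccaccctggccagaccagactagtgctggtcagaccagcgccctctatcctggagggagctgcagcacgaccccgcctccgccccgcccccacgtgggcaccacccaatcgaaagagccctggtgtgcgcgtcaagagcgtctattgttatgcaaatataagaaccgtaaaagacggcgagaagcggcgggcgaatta
Rbpj, chr5:53590096-53590213, plus strand: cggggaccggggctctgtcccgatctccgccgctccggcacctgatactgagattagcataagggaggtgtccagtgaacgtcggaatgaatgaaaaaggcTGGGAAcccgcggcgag

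Windows of 250 bases upstream were at hand for Notch1, Notch2, Notch4, Dtx1, Nrarp and Rbpj (7 windows, 2 of them for Rbpj). TGGGAA or TTCCCA was found on either strand in 2 of these 7, both of Rbpj, and in 7094 of 32851 windows of all genes (21.6%). The 2 windows of Rbpj overlap and are not independent. A match 65 bases upstream in the first is the same site as the match 205 bases upstream in the second. The longer GTGGGAA or TTCCCAC, which contains the core, was found in none of the 7 and in 1779 windows of all genes (5.42%). The match in the stretch printed for Rbpj begins 149 bases upstream of the start site of that window. Both windows of Rbpj lie inside the annotated gene (chr5:53466152-53657362) and not in front of its first base. Exons cover 132 of the 250 bases of the first window and all 250 of the second.

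By group mean, Notch2 was the most abundant receptor per kilobase of exon in 5 of the 6 groups, and Notch4 exceeded it in immature thymic cDC1 only. In single samples of that group the 2 receptors overlapped. Notch4 made up 47.9% to 55.4% of the summed receptor level per kilobase and Notch2 43.2% to 50.1%. Notch4 had 500.2-fold between its highest and its lowest group mean, with high levels in immature cDC1 of both organs and low levels in cDC2 and in all mature cells. Notch1 was at a similar level in the 4 immature groups and lower in the 2 mature groups. Fewer cells of a type and less RNA per cell cannot be told apart in these bulk samples.

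Notch2 (chr3:98013527-98150361, plus strand), the receptor that splenic cDC2 need for their Esam-high fraction, had normalized read counts of 9103, 8702, 11443 and 7335 in the 4 splenic cDC1 samples. In splenic cDC2 it was at 9363, 6704 and 12492. Immature thymic cDC1 gave 9786, 8150, 6421 and 7111, and immature thymic cDC2 gave 5246, 5807 and 5027. The ranges of these groups overlapped except that every immature thymic cDC2 sample was below every other immature sample. Mature thymic cDC1 were at 2267, 2447 and 2760 and mature thymic cDC2 at 3138, 3503 and 2826, below all immature samples. The log2 difference between mature and immature cells was -1.65 ± 0.19 (SE) in thymic cDC1 and -0.77 ± 0.20 in thymic cDC2, and within lane 8 alone it was -1.53 and -0.78. Thymic minus splenic cells differed by -0.22 ± 0.18 in cDC1 and by -0.79 ± 0.20 in cDC2, with 0.14 and -0.59 in lane 5 and -0.35 and -1.21 in lane 8.

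Notch4 (chr17:34564268-34588503, plus strand), a receptor best known from endothelium, was at 3238, 3598, 5861 and 3392 in splenic cDC1. Immature thymic cDC1 had 7131, 7333, 6157 and 5087, and these 2 groups overlapped only through splenic replicate 3, the sample with 5861. Every sample of the other 4 groups was at or below 179. Splenic cDC2 gave 106, 81.8 and 179, immature thymic cDC2 60.8, 68.3 and 95.0, and mature thymic cDC1 114, 20.8 and 135. These 3 groups overlapped, and mature thymic cDC2 lay below all of them with 18.4, 8.35 and 11.8. On the log2 scale, cDC2 minus cDC1 was -5.06 ± 0.46 (SE) in spleen, -6.42 ± 0.46 in immature thymic cells and -2.40 ± 0.49 in mature thymic cells. Mature minus immature cells gave -6.51 ± 0.46 in thymic cDC1 and -2.49 ± 0.49 in thymic cDC2, and -6.45 and -2.62 within lane 8. Without splenic cDC1 replicate 3, the difference between subsets in spleen was -4.86 and the difference between organs in cDC1 moved from 0.71 ± 0.42 to 0.90. Without mature thymic cDC1 replicate 2, the mature minus immature difference in cDC1 was -5.67 and the difference between subsets in mature cells was -3.24.

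Endothelial transcripts are given beside Notch4 because endothelium also expresses it. Cldn5, Egfl7 and Tek were at most 14.2 in any sample. The other 4 were detected in splenic and in immature thymic cDC1, with Pecam1 at 1534 to 1920 and 245 to 357, Vwf at 584 to 919 and 474 to 675, Kdr at 107 to 147 and 401 to 614, and Cdh5 at 12.4 to 52.1 and 37.2 to 47.5. The 7 endothelial markers summed to between 2371 and 3039 in splenic cDC1, 1214 and 1559 in immature thymic cDC1, and 4847 and 5347 in immature thymic cDC2. Their part in the Notch4 values was not tested.

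Notch1 (chr2:26457903-26516663, minus strand), the receptor that sets T cell fate in the thymus, was at 322, 346, 539 and 382 in splenic cDC1 and at 358, 179 and 642 in splenic cDC2. Immature thymic cDC1 had 515, 482, 251 and 366, and immature thymic cDC2 had 488, 443 and 302. All 4 immature groups overlapped. Mature thymic cDC1 were at 7.37, 88.4 and 39.2 and mature thymic cDC2 at 99.8, 140 and 29.8, which overlapped with each other and lay below all immature samples. The log2 difference between mature and immature cells was -3.65 ± 0.61 (SE) in thymic cDC1 and -2.41 ± 0.65 in thymic cDC2. Without mature thymic cDC1 replicate 1, the sample with 4 reads of Notch1, the first of these was -2.70. Thymic minus splenic cells gave -0.0024 ± 0.56 in cDC1 and 0.22 ± 0.65 in cDC2, with opposite signs in lane 5 (0.62 and 0.94) and lane 8 (-0.36 and -0.81). Exons of Notch1 overlap 0610009E02Rik and Gm13568 on the opposite strand, and those of Notch2 overlap Gm42820 on the same strand; reads of these overlaps cannot be assigned to one gene with certainty.

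Beside Notch1, thymocyte transcripts were higher in the mature thymic samples. The 8 thymocyte and T cell markers summed to between 668 and 1375 in the mature samples, 97.1 and 226 in the immature thymic samples, and 10.2 and 97.9 in the splenic samples. Rag1 alone was at 150 to 345 in the mature and at most 0.637 in the splenic samples. Notch1, which thymocytes also express, was lower in the mature samples, and the part of thymocyte RNA in the values was not tested.

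**Figure D1:**
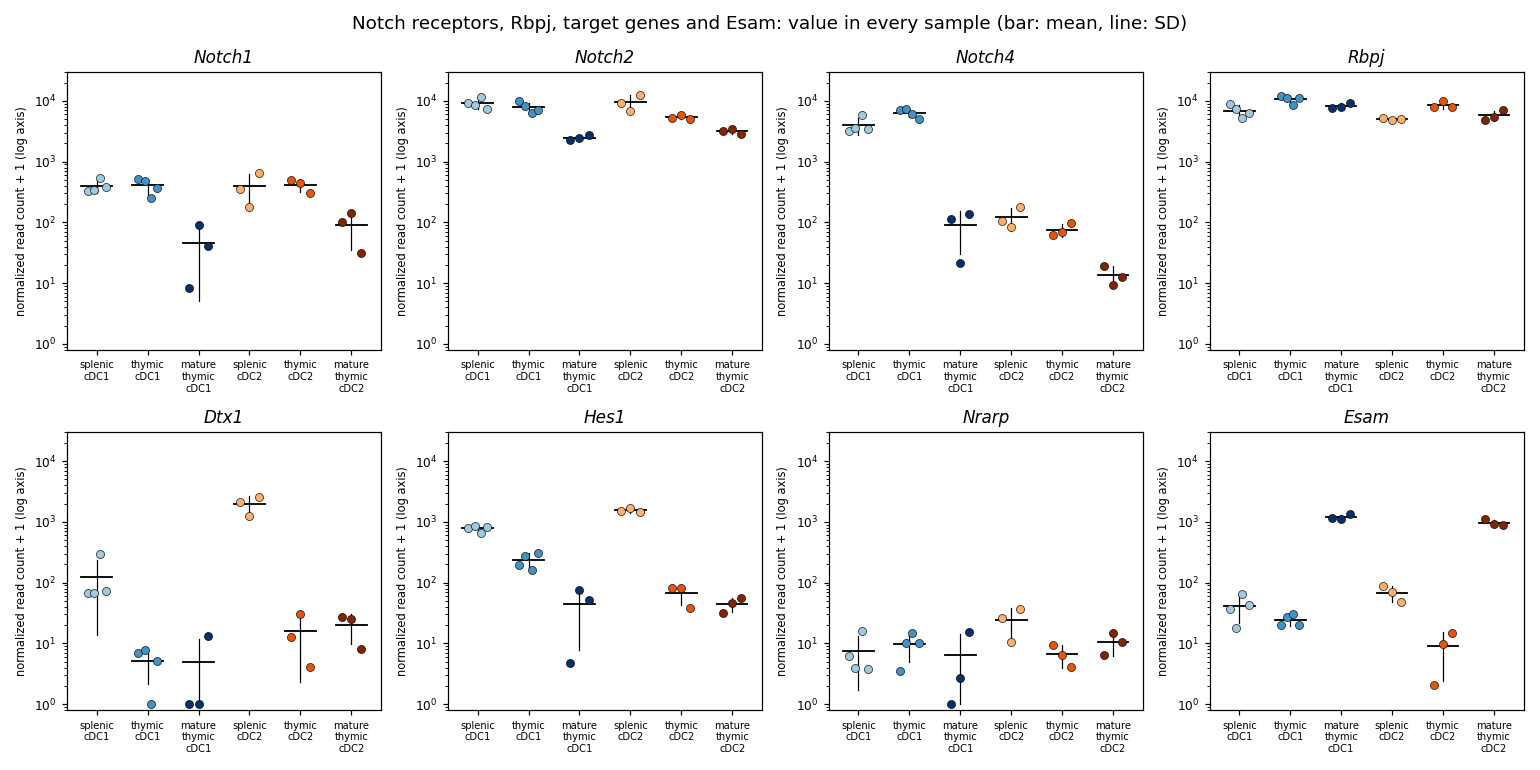
Normalized read count plus 1 (log axis) of the 8 genes in each of the 20 samples, grouped by organ, subset and maturation, with the mean (bar) and SD (line) of each group. Notch4 separates immature cDC1 (3238 to 7333) from every other group (8.35 to 179), Dtx1 is at 1239 to 2607 in splenic cDC2 and at most 293 elsewhere, and Esam is at 896 to 1323 in the 2 mature groups.

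Read per kilobase of exon, which allows levels of different genes to be compared, Notch2 stood at 848 ± 158 (SD, n = 4) in splenic cDC1 and Notch4 at 499 ± 153. In immature thymic cDC1 the order was turned, with 797 ± 128 for Notch4 and 730 ± 136 for Notch2 (n = 4), a gap within the SD of each. Notch1 was at 27.6 to 28.9 per kilobase in the means of the 4 immature groups, and at 3.16 and 6.31 in mature thymic cDC1 and cDC2. Of the summed level of the 4 receptors, Notch2 made up 61.9% in splenic cDC1 and 46.8% in immature thymic cDC1 but 92.7% to 97.2% in the 3 cDC2 groups, and 94.0% in mature thymic cDC1. The share of Notch4 was 35.8% and 51.3% in splenic and immature thymic cDC1, 4.48% in mature thymic cDC1, and between 0.539% and 1.75% in the cDC2 groups. In single samples it lay between 31.6% and 55.4% in immature cDC1 and did not exceed 6.30% elsewhere. Notch3 made up at most 0.677% in any sample.

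**Figure D2:**
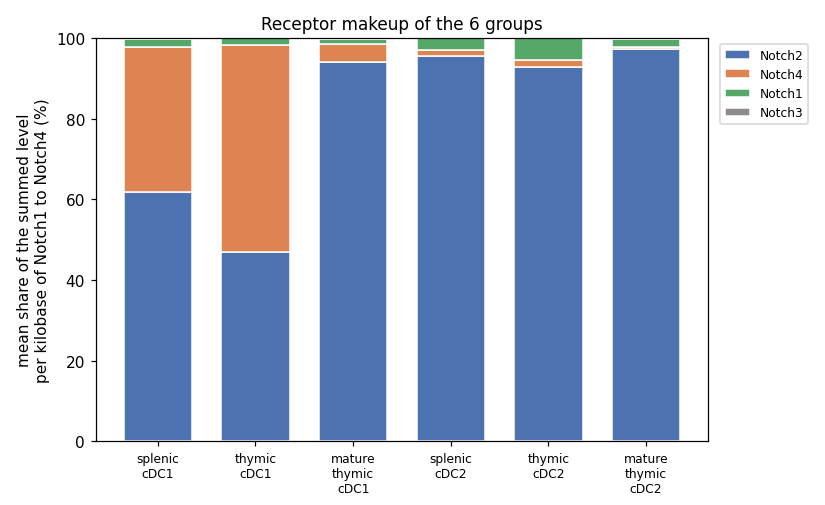
Mean share of each receptor in the summed level per kilobase of exon of Notch1 to Notch4 (%), 1 stacked bar per group. Notch4 takes 35.8% and 51.3% in the 2 immature cDC1 groups, whereas Notch2 takes at least 92.7% in the other 4.

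Rbpj (chr5:53466152-53657362, plus strand), the factor through which all 4 receptors act on DNA, varied least among the 8 genes, with 2.11-fold between the highest and the lowest group mean. Its normalized read counts were 8818, 7421, 5156 and 6195 in splenic cDC1, 12083, 11065, 8645 and 10976 in immature thymic cDC1, and 7704, 8027 and 9385 in mature thymic cDC1. In cDC2 they were 5236, 4894 and 5045 in spleen, 7801, 9958 and 7893 in immature thymic cells, and 4871, 5494 and 7008 in mature thymic cells. Ordered by mean, each group overlapped with the next. Thymic minus splenic cells were at 0.65 ± 0.16 (SE, log2) in cDC1 and 0.75 ± 0.19 in cDC2, and in cDC2 every thymic immature sample lay above every splenic one. The same differences were 0.58 and 0.62 in lane 5 and 0.85 and 0.81 in lane 8. The related Rbpjl was at 0 reads in every sample.

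Of the target genes among the 8, Dtx1 and Hes1 were highest in splenic cDC2. They had the same order of the highest groups, splenic cDC2 over splenic cDC1 over thymic cells, and in both genes the splenic groups did not overlap with each other or with any thymic group. Nrarp was near the detection limit everywhere.

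Dtx1 (chr5:120680202-120711927, minus strand), which encodes the ubiquitin ligase Deltex-1, was at 2098, 1239 and 2607 in splenic cDC2. Splenic cDC1 had 66.9, 67.1, 293 and 72.1. The splenic groups were thus separated by more than their ranges, with splenic cDC1 replicate 3 again the highest of its group. In immature thymic cDC2 Dtx1 was at the level of few reads, with 11.7, 29.5 and 3.12, and in immature thymic cDC1 it was at 5.91, 6.66, 0 and 4.04, from 0 to 8 reads. Mature thymic cDC1 gave 0, 0 and 12 and mature thymic cDC2 26.1, 24.4 and 7.06. The 4 thymic groups overlapped in the order of their means. Thymic minus splenic cells were at -7.34 ± 0.97 (SE, log2) in cDC2 and at -4.63 ± 0.84 in cDC1, with -6.98 and -3.30 in lane 5 and -7.86 and -5.44 in lane 8. The value in cDC1 rests on few reads in the thymus, and was -3.19 with a pseudocount of 8 and -4.11 without splenic replicate 3. In spleen, cDC2 minus cDC1 was 4.25 ± 0.91, and 4.76 without that replicate.

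Hes1 (chr16:30064384-30067796, plus strand), a transcriptional repressor and the classic Notch target, was at 1512, 1699 and 1445 in splenic cDC2 and at 802, 854, 663 and 826 in splenic cDC1. In immature thymic cDC1 it was at 198, 272, 161 and 307, and in immature thymic cDC2 at 80.1, 79.7 and 37.4. No sample of these 4 groups reached into the range of the next. The order of the subsets was opposite in the 2 organs: cDC2 minus cDC1 was 0.98 ± 0.60 (SE, log2) in spleen and -1.85 ± 0.60 in immature thymic cells, a difference that was not tested for this gene. Mature thymic cDC1 had 3.69, 74.5 and 50.4 and mature thymic cDC2 30.7, 44.5 and 54.2, both overlapping with each other and with immature thymic cDC2. Thymic minus splenic cells were at -4.62 ± 0.64 in cDC2 and -1.78 ± 0.56 in cDC1, with -4.31 and -2.06 in lane 5 and -4.70 and -1.63 in lane 8. Mature minus immature thymic cDC1 was -3.12 ± 0.60, but -1.87 without mature replicate 1, in which 2 reads of Hes1 were counted. Leaving out that sample also turned the sign of cDC2 minus cDC1 in mature cells, from 0.71 ± 0.64 to -0.53.

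Nrarp (chr2:25180758-25183339, plus strand), which encodes an inhibitor of the Notch complex that is itself induced by it, did not exceed 35.8 in any sample. Splenic cDC2 were at 25.6, 9.37 and 35.8, from 15 to 28 reads. Splenic cDC1 had 5.15, 2.96, 14.8 and 2.73. The other groups lay between 0 and 14.4, and all neighbours in the order of means overlapped. At 0 to 28 reads per sample, its order of groups cannot be read. Its single exon overlaps Gm38287 on the opposite strand.

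Esam (chr9:37528078-37538319, plus strand), an adhesion molecule of the immunoglobulin superfamily, was at 1167, 1125 and 1323 in mature thymic cDC1 and at 1104, 924 and 896 in mature thymic cDC2. The highest immature sample, of splenic cDC2, was at 86.9. Mature minus immature cells gave 5.64 ± 0.51 (SE, log2) in cDC1 and 7.18 ± 0.55 in cDC2, the direction that the gate on Esam protein sets. The value in cDC2 was 6.33 without immature replicate 1, the sample with 1 read, and 6.03 with a pseudocount of 8. Within the Esam- gate, splenic cDC2 were at 86.9, 68.7 and 47.3, splenic cDC1 at 36.0, 16.8, 64.6 and 42.5, immature thymic cDC1 at 19.4, 25.8, 29.6 and 19.2, and immature thymic cDC2 at 1.07, 8.70 and 14 respectively. Immature thymic cDC2 lay below all other immature samples, and the 3 other immature groups overlapped in the order of their means. The thymic minus splenic difference in cDC2 was -3.31 ± 0.55, and -2.46 without the thymic sample with 1 read.

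Genes whose log2 levels followed those of a member most closely over the 20 samples, among tested genes with a mean of at least 100, are named for the 6 members with over 4-fold between group means. For Notch4 they were Snx22 (Pearson correlation 0.973), Dnmbp (0.968) and Cd36 (0.964). Hes1 was followed by Arhgap17 (0.947), 1700016P03Rik (0.919) and Aig1 (0.904), and Dtx1 by Tpcn1 (0.900), Frat1 (0.894) and Acsf2 (0.893). Notch1 was followed by Ssbp4 (0.966), Wdr46 (0.961) and Shq1 (0.956), Esam by Gm12942 (0.961) and Rasip1 (0.952), and Nrarp by Nod2 (0.827), Gadd45g (0.782) and Tfeb (0.765). The points share groups, libraries and lanes. Nrarp had 0 to 28 reads per sample, so that its correlations rest on few reads. By Spearman correlation, none of the genes named here was among the 3 closest to the same member.

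The rest of the pathway was examined through 66 genes in 8 lists by role, of which 57 passed the filter. Of these 57, maturation in the thymus changed 24 in cDC1 (42.1%), beside 45.7% of all 14970 genes tested, where a gene counted as changed if limma gave it a Benjamini-Hochberg adjusted p under 0.1 and it moved by more than 1 on the log2 scale. All adjusted p values below are from this limma fit over all genes. In this comparison 12 list genes rose, beside 21.3% of all genes called higher, and 12 fell, beside 24.5% called lower. In cDC2, maturation changed 17 of the 57 (29.8%), beside 35.6% of all genes, with 11 that rose (18.6% of all genes) and 6 that fell (17.0% of all genes). The shares of the list were thus near those of all genes. The median log2 change was -0.072 in cDC1 and 0.116 in cDC2 for the list, and -0.043 and 0.037 for all genes. Scaling all samples to one total moved the median of all genes from -0.0431 to -0.322 in cDC1 and from 0.0374 to -0.257 in cDC2, and the share of calls that were higher from 46.5% to 36.5% and from 52.2% to 39.0%. The list counts were then 8 higher and 15 lower in cDC1 and 8 higher and 10 lower in cDC2.

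Of the ligands, Jag1 and Dll4 rose on maturation in both subsets. Jag1, which encodes Jagged 1, had normalized read counts of 32.1, 17.5, 25.0 and 25.3 in immature thymic cDC1 and 11191, 9462 and 11587 in mature thymic cDC1. In thymic cDC2 it went from 58.7, 69.6 and 56.1 to 2374, 2699 and 2917. The rise was 8.72 ± 0.23 (SE, log2, adjusted p = 9.29e-17) in cDC1 and 5.42 ± 0.24 (adjusted p = 8.95e-13) in cDC2. The rise was smaller in cDC2 by 3.30 ± 0.33, with an adjusted p of 1.53e-06 in a comparison that called 13.6% of all genes. In spleen, Jag1 was at 191, 237 and 165 in cDC2 and at 14.8 to 20.6 in cDC1, so that cDC2 were higher by 3.37 ± 0.23 (adjusted p = 5.11e-10), whereas in mature thymic cells cDC2 were lower by 2.01 ± 0.24 (adjusted p = 4.99e-06).

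Dll4, which encodes Delta-like 4, was at 5.91, 8.33, 4.68 and 17.2 in immature and at 223, 107 and 382 in mature thymic cDC1. Mature thymic cDC2 had more of it, with 1413, 1484 and 831 against 45.9, 30.8 and 35.8 in immature cells. It rose by 4.54 ± 0.52 (SE, log2, adjusted p = 2.45e-07) in cDC1 and by 4.99 ± 0.56 (adjusted p = 3.30e-07) in cDC2, and was higher in mature cDC2 than in mature cDC1 by 2.52 ± 0.56 (adjusted p = 0.00244). Jag2 took the opposite course in cDC1 and was not called on maturation in cDC2. It fell on maturation in cDC1, from 1135 to 1641 down to 350 to 578 (-1.60 ± 0.45, adjusted p = 0.00481), and was lower in cDC2 than in cDC1 in all 3 comparisons of subsets, with -3.07 ± 0.45 (adjusted p = 2.73e-05) in immature thymic cells. In spleen the call rested on cDC2 replicate 2, without which the difference moved from -1.58 ± 0.45 to -0.73. Dll1, Dll3, Dlk1 and Dlk2 were the other ligands listed, and 3 of the 7 ligands did not pass the filter. Per kilobase, Jag1 in mature thymic cDC1 (1844 ± 194, SD, n = 3) exceeded every receptor in these cells, Notch2 being at 231 ± 23.1.

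**Figure D3:**
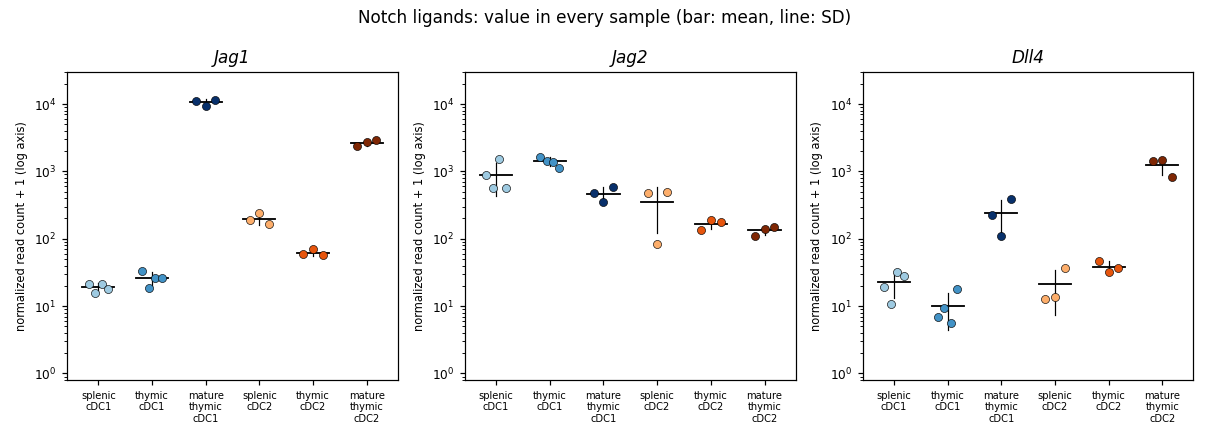
Normalized read count plus 1 (log axis) of the ligands Jag1, Jag2 and Dll4 in each of the 20 samples, with the mean (bar) and SD (line) of each group. Jag1 is at 9462 to 11587 in mature thymic cDC1 and at 2374 to 2917 in mature thymic cDC2, Dll4 is highest in mature thymic cDC2 (831 to 1484), and Jag2 is highest in immature thymic cDC1 (1135 to 1641).

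Transcripts of thymic epithelium, a known source of Notch ligands, are given beside the ligands. The 6 epithelial markers summed to 597 to 711 in immature and 1805 to 2579 in mature thymic cDC1, and to 3507 to 3877 and 3817 to 4878 in thymic cDC2. The larger part of this sum in mature cells was Aire (1550 to 3978), which mature cDCs are known to express, whereas the defining epithelial gene Foxn1 was at most 25.3 and Krt5 between 33.2 and 237 in mature samples. Their part in the ligand values was not tested.

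Of the 6 genes that fold, glycosylate or first cleave the receptors, 5 were changed by maturation in cDC1 and 4 in cDC2. Of all genes, 45.7% and 35.6% were called in these comparisons, and neither this list nor those that follow were tested against that share. Poglut1, the O-glucosyltransferase of the receptors' EGF repeats, rose from 2005 to 2374 up to 18628 to 21198 in cDC1 (3.25 ± 0.14, SE, log2, adjusted p = 1.88e-13) and from 1419 to 1759 up to 14165 to 18858 in cDC2 (3.35 ± 0.15, adjusted p = 1.19e-12). The 3 Fringe enzymes, which extend the O-fucose of the same repeats and so set which ligands a receptor prefers, went in different directions. Mfng fell by 3.30 ± 0.39 (adjusted p = 3.34e-07) in cDC1 and by 2.71 ± 0.42 (adjusted p = 1.82e-05) in cDC2, and Rfng fell by 1.95 ± 0.37 (adjusted p = 0.000125) and 1.11 ± 0.39 (adjusted p = 0.0260), the latter under the fold threshold without mature replicate 3 (-0.87). Lfng rose by 1.23 ± 0.29 (adjusted p = 0.0012) and 1.18 ± 0.31 (adjusted p = 0.00399), but passed the fold threshold in neither subset when samples were scaled to one total (0.93 and 0.87), nor in cDC2 without mature replicate 1 (0.98).

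Of the 9 genes of the proteases that release the intracellular domain, 1 was called in cDC1 and 2 in cDC2. Psen2, a catalytic subunit of gamma-secretase, rose by 1.11 ± 0.20 (SE, log2, adjusted p = 9.32e-05) in cDC1 and by 1.66 ± 0.22 (adjusted p = 2.68e-06) in cDC2, and Aph1b, another subunit, fell by 1.22 ± 0.20 in cDC2 (adjusted p = 2.95e-05). The other 7 passed the thresholds in neither maturation comparison. The rise of Psen2 in cDC1 was under the fold threshold with samples scaled to one total (0.81) and without mature replicate 3 (0.95).

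Among 12 genes of ubiquitylation and endocytosis of ligands and receptors, 4 were changed by maturation in cDC1 and 2 in cDC2. Neurl1a, a Neuralized ubiquitin ligase that acts on ligands and is among both counts, was at 0 reads in all 7 immature thymic samples and at 20.3, 3.47 and 13.6 in mature cDC1 and 36.1, 23.0 and 12.6 in mature cDC2. It passed the filter on low values only through the mature groups, so that its own calls are no support for a difference. Dtx3 rose in both, by 1.86 ± 0.20 (SE, log2, adjusted p = 8.90e-08) and 1.96 ± 0.21 (adjusted p = 2.21e-07). Dtx4, a relative of Dtx1, had an opposite subset pattern to Dtx1 in spleen, with 483 to 665 in cDC1 and 147 to 217 in cDC2 (-1.69 ± 0.22, adjusted p = 5.91e-06). It fell by 1.59 ± 0.22 on maturation in cDC1 (adjusted p = 3.27e-06).

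The coactivators and corepressors of the RBPJ complex held 6 and 12 tested genes. Of the coactivators, 2 were changed by maturation in cDC1 and 1 in cDC2. Maml3, a Mastermind protein, fell from 54.6 to 86.6 down to 0, 5.20 and 0 in cDC1 and from 324 to 480 down to 25.3, 39.0 and 0 in cDC2 (-5.20 ± 0.86, adjusted p = 2.74e-05, and -5.22 ± 0.92, adjusted p = 8.82e-05). Maml3 was also higher in splenic cDC2 (587 to 1072) than in splenic cDC1 (89.2 to 175), by 2.64 ± 0.86 (SE, log2, adjusted p = 0.0289), a call lost with a pseudocount of 0.1 (2.65) and without splenic cDC2 replicate 3 (2.43). Of the corepressors, 4 changed in cDC1 and 3 in cDC2, and the Groucho family members diverged. Tle1 fell by 3.41 ± 0.26 (adjusted p = 4.72e-10) in cDC1 and 2.33 ± 0.27 (adjusted p = 6.26e-07) in cDC2, whereas Tle2 rose by 6.22 ± 0.63 (adjusted p = 4.37e-08) and 3.50 ± 0.68 (adjusted p = 0.000235), and Tle3 by 2.09 ± 0.22 (adjusted p = 6.02e-08) and 1.10 ± 0.23 (adjusted p = 0.000553), the latter 0.80 with samples scaled to one total.

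**Figure D4:**
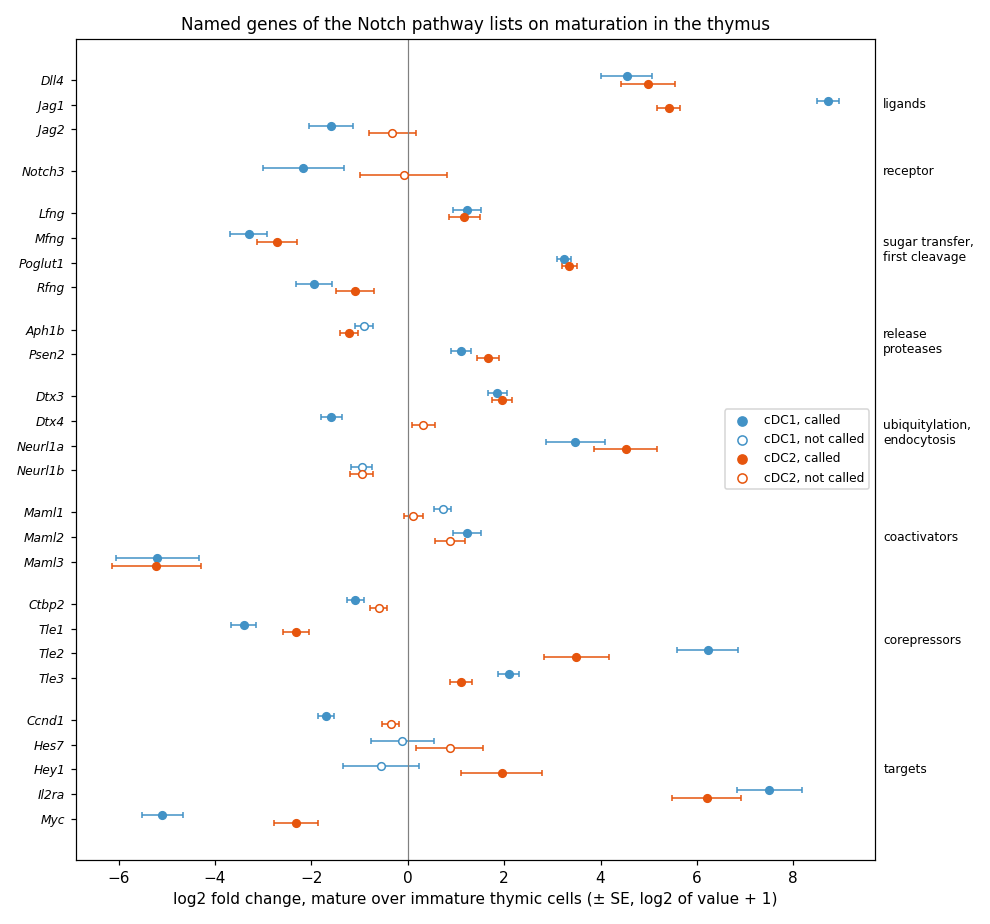
Log2 fold change (± SE) of mature over immature thymic cells for the named genes of the 8 pathway lists, in cDC1 (blue) and cDC2 (orange), with filled symbols for genes past both thresholds. Jag1 (8.72 in cDC1) and Il2ra (7.5 in cDC1) lie farthest to the right and Maml3 and Myc farthest to the left.

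Of the 12 other target genes listed, 7 were tested. Il2ra, which encodes CD25 and is also a marker of activated cDCs, rose in cDC1 by 7.5 ± 0.67 (SE, log2, adjusted p = 6.77e-09) and in cDC2 by 6.21 ± 0.72 (adjusted p = 5.21e-07). Myc fell by 5.09 ± 0.43 (adjusted p = 2.53e-09) and by 2.32 ± 0.46 (adjusted p = 0.000281), a fall smaller in cDC2 by 2.77 ± 0.63 (adjusted p = 0.00552). Hey1 was at most 75.3 and Hes7 at most 48.0 in any sample. Hes7 was lower in splenic cDC2 than in splenic cDC1 by 2.73 ± 0.65 (adjusted p = 0.00318), in the direction opposite to Hes1 and Dtx1. No other target listed was called higher in splenic cDC2 than in splenic cDC1 apart from Myc (1.13 ± 0.43, adjusted p = 0.0621), which lost that call without splenic cDC1 replicate 1 or 4 or splenic cDC2 replicate 1 or 3 (0.97 to 1.12). Myc also lost it when the libraries of a group with the same number were averaged to 1 sample (1.1).

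Between organs, few genes of the lists differed. In immature cDC1, 2 of 57 were called (3.51%), beside 8.77% of all genes, none higher (4.26% of all genes) and 2 lower (4.52% of all genes). These were Itch, a ubiquitin ligase of the receptor, with -1.08 ± 0.18 (SE, log2, adjusted p = 0.000193), and Maml2, with -1.23 ± 0.27 (adjusted p = 0.00314). In cDC2, 6 of 57 were called (10.5%), beside 14.2% of all genes, 3 higher (8.30% of all genes) and 3 lower (5.87% of all genes). The 3 lower were Jag1 (-1.66 ± 0.24, adjusted p = 4.44e-05), Itch (-1.27 ± 0.21, adjusted p = 0.000124) and Lfng (-1.13 ± 0.31, adjusted p = 0.0131, but -0.83 without splenic replicate 3), and the 3 higher were Il2ra (3.17 ± 0.72, adjusted p = 0.00317), Neurl1b (1.43 ± 0.24, adjusted p = 0.000175) and Poglut1 (1.09 ± 0.15, adjusted p = 2.81e-05). The organ effect differed between subsets in 3 of the 57, beside 4.98% of all genes, namely Jag1, Il2ra and Neurl1b. Without splenic cDC2 replicate 2, Il2ra (2.95) and Neurl1b (0.99) lost that call.

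Between subsets, 13 of 57 list genes were called in spleen (22.8%), beside 16.6% of all genes. In immature thymic cells 9 were called (15.8%), beside 16.4%, and in mature thymic cells 10 (17.5%), beside 18.9%. Notch3, the receptor that is no member, did not exceed 73.9 in any sample. It was called lower in splenic cDC2 than in splenic cDC1 (-2.15 ± 0.84, SE, log2, adjusted p = 0.0708) and lower in mature than in immature thymic cDC1 (-2.17 ± 0.84, adjusted p = 0.0319). The latter call was not made by edgeR or DESeq2 on the recovered reads (-0.95 and -0.98), nor by limma without mature replicate 1 or 2 (-1.50 each), and the former was lost without any of 4 single splenic samples (-1.73 to -2.19).

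Genes known from the Esam-high and Esam-low fractions of splenic cDC2 were read as 2 further lists. Of the Esam-high list, 5 of 6 genes were tested, and 4 were higher in cDC2 than in cDC1 in the spleen, where 16.6% of all genes were called in either direction. Of these 4, Runx3 lost its call without splenic cDC2 replicate 3 (0.98). Clec4a4, the lectin DCIR2, was at 1704, 2863 and 1336 in splenic cDC2 and at 25.6, 119 and 76.3 in immature thymic cDC2, a difference of -4.90 ± 0.70 (SE, log2, adjusted p = 3.43e-05). Cd4 was at 4524, 5380 and 5490 in splenic and at 589, 560 and 808 in immature thymic cDC2 (-2.99 ± 0.36, adjusted p = 4.75e-06). Relb, an NF-kappaB subunit of Notch2-dependent cDC2, was lower in immature thymic than in splenic cDC2 by 1.35 ± 0.27 (adjusted p = 0.00106), but rose on maturation by 4.28 ± 0.25 (adjusted p = 1.21e-11) in cDC1 and 3.53 ± 0.27 (adjusted p = 1.49e-09) in cDC2. Of the 5 genes tested, 3 (Clec4a4, Cd4 and Relb) were thus called lower in immature thymic than in splenic cDC2. Of all genes, 5.87% were called lower there and 14.2% in either direction. The splenic cells were those gated without Esam. Runx3 and Ltbr were not called between organs in cDC2.

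Of the Esam-low list, all 6 genes were tested and 2 differed between organs in cDC2, beside 14.2% of all genes called in either direction. Ccr2, a chemokine receptor of monocyte-related cells, was at 2218, 2969 and 1926 in splenic and at 12282, 11607 and 10539 in immature thymic cDC2 (2.30 ± 0.77, SE, log2, adjusted p = 0.0387), a call lost without splenic replicate 3 (2.16). Csf3r went the other way, from 1046 to 1608 down to 354 to 475 (-1.69 ± 0.65, adjusted p = 0.0756), a call lost without a filter on low values and without any of 5 single samples (-1.53 to -1.81). All 6 were called lower on maturation in cDC1, beside 24.5% of all genes, and 4 of 6 in cDC2, beside 17.0%. Ccr2 fell by 7.69 ± 0.72 in cDC1 (adjusted p = 1.23e-08), and Cx3cr1 lost its call in cDC2 without mature replicate 3 (-0.83).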

How the data were processed

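The 21 libraries were made from sorted cells with the TruSeq Stranded mRNA kit. Adapters were removed by the authors with Cutadapt, and STAR (2.6, per the submitters' processing notes) placed the reads on mm10. HTSeq-count gave a count for each Ensembl gene, which DESeq2 (1.24.0) normalized. The deposited values are thus a signal, the read count divided by 1 size factor per library; whole reads were recovered for 100% of values within 0.02 reads. The strand setting and the Ensembl release are not given in the sources used here. The libraries carry no molecular identifiers in these sources, so that depth gives counting error only.

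The log2 of the value plus 1 was fitted with limma (3.58.1, R 4.3.3; lmFit, eBayes with trend) over 20 samples and 14970 genes that reached 10 in 3 or more samples, with 1 mean per group. A call needed a Benjamini-Hochberg adjusted p under 0.1 and a log2 change of more than 1 in size. The labels do not say that samples are separate pools, so that p-values measure the spread between these samples. DESeq2 (1.42.0) and edgeR (4.0.16) on recovered reads, pseudocounts of 0.1 and 8, filters, scaling, lane, repeated libraries and single samples left out were tried as alternatives. The code was tested on simulated data. Values within lanes were added after the values were seen. Gene positions and exon lengths came from GENCODE M21, which held 37607 of the 37734 identifiers.

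The 8 genes and all lists were chosen with earlier results of these data known. Named were the 8 genes and, of each list, up to 4 called genes with the largest change, plus those whose effect differed between subsets; Itch, Ltbr and Rbpjl were named after their values were seen. Adjusted p values come from limma. Samples with the same number in their library names did not deviate together in every pair (correlations from -0.15 to 0.461). Of the genes most like a member, 1 is not reported here.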

Additional observations from a re-analysis of the deposited data

Results flagged for a closer look

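Splenic cDC1 replicate 3 lay far above the other samples of its group for 5 of the named genes: Notch4 (5861, others 3238 to 3598), Dtx1 (293, others 66.9 to 72.1), Relb (2619, others 1247 to 1258), Cd4 (783, others 487 to 526) and Psen2 (465, others 331 to 354). Immature thymic cDC1 replicate 1 did so for Neurl1b (942, others 663 to 690). The test for a lone extreme value was applied to 85 groups of 4 samples and marked 6, and chance marks about 1 in 20 groups. Of the 6 cDC2 markers, splenic cDC1 replicate 3 was highest for Sirpa (1548, against 749 to 1126 in the other samples). The same held for Cd209a (339, others 203 to 327) and narrowly for Irf4 (1412, others 989 to 1410). It did not hold for Itgam (36.9, others 27.4 to 60.7), Mgl2 or Clec10a, which was lowest there (11.1). Of the 6 cDC1 markers, Xcr1 (8385, others 12175 to 15629), Clec9a (10595, others 14642 to 16581) and Cadm1 were lowest there. Irf8 (60982, others 38102 to 43815), Batf3 and Itgae were highest. Of the 5 mature cDC markers, Ccr7 (726 against 261 to 410), Fscn1 (1009 against 281 to 379) and Il4i1 (537 against 170 to 287) were also highest there, and Lamp3 and Ccl22 were not. Their part in the values was not tested.

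For 8 genes of the pathway lists, limma found that the effect of maturation or of the organ differed between subsets (cDC2 minus cDC1, log2). These were 6 of 57 for maturation (10.5%), beside 13.6% of all genes, and 3 for the organ (5.26%), beside 4.98%. For maturation the differences were -3.30 for Jag1, 2.77 for Myc, -2.72 for Tle2, 1.91 for Dtx4, 1.33 for Ccnd1 and 1.08 for Tle1. For the organ they were 3.29 for Il2ra, -2.08 for Jag1 and 1.2 for Neurl1b. Of the Esam-high and Esam-low lists, Ccr2 (3.43) and Lyz2 (2.19) differed in maturation and Relb (-1.29) in the organ. With another pseudocount, the call was lost for Tle2 in maturation (-3.83 with 0.1 and -1.18 with 8). The call for Il2ra in the organ was lost with 0.1 (4.15). Leaving out single samples ended the call for Tle1 (0.83 to 1.04 without any of 6 samples), Tle2 (-2.57 and -2.66 without immature replicate 1 or mature replicate 2 of thymic cDC2), Lyz2 (1.73 without mature thymic cDC2 replicate 2), Il2ra (2.95 to 3.29 without splenic cDC2 replicate 2 or immature thymic cDC2 replicate 2 or 3), Neurl1b (0.99 without splenic cDC2 replicate 2) and Relb (-1.24 and -1.03 without immature thymic cDC2 replicate 1 or splenic cDC2 replicate 3).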

How the results depend on the processing

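Of the counts of genes called in the 9 comparisons, 1 moved by over 1.5 times: cDC2 minus cDC1 in mature thymic cells, with 2834 genes, had 1820 when a mean value of at least 50 was required, a filter that tests fewer genes. The other 93 counts under alternatives, and all 180 counts without 1 sample, stayed within that range. On the recovered reads, edgeR called 6889 genes for maturation in cDC1 and 5426 in cDC2, against 6848 and 5329 by limma. Among the 8 genes and the named list genes, no change past both thresholds was reversed in direction. The directions of the other genes were not compared. Over all pairs of a list gene's comparison and an alternative, the call was lost in 35 and kept its side in 1341, and with 1 sample left out it was lost in 66 and kept its side in 2554; the cause was not tested. Notch2 moved from -1.65 to -1.94 and from -0.77 to -1.07 on maturation when samples were scaled to one total, and Rbpj from -0.35 to -0.65 and from -0.57 to -0.88. With low counts, the pseudocount decided the size: cDC2 minus cDC1 for Dtx1 in mature cells was 2.91, and 5.07 and 1.23 with pseudocounts of 0.1 and 8.

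With the number in the library names as a replicate block, 2738 genes were called between splenic subsets and 2472 between immature thymic subsets, against 2663 and 2602 in the same 2 groups without the block. Samples of the same number did not deviate together in every pair. The mature groups share only 1 number, so that no block could be fitted there.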

Other observations

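In both splenic groups the sample whose library name opens with 9 had the highest value of Dtx1, Notch1, Notch2, Notch4 and Nrarp, 5 of the 8 genes. The same held for 3704 of the 14970 genes tested (24.7%). Both of these samples came from lane 8, as did splenic cDC1 replicate 4. Replicate 4 was the lowest of its group for Notch2 (7335) and Nrarp (2.73). For Notch1 (382) and Dtx1 (72.1) it was below only the sample opening with 9, and for Notch4 (3392) it lay between replicates 1 and 2. The part of the lane in these values was not tested.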
